A study of Mus musculus with 8 samples.

Results

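The mouse mitochondrial genome carries 37 genes, and their transcripts were followed in RNA sequencing of 8 heart libraries. The members were all genes with a symbol starting with mt-, which gave 13 mRNAs, 2 rRNAs and 22 tRNAs among 55487 gene identifiers. The mice were wild type (WT) or carried a global deletion of Set7 (Set7KO), obtained from crossings of heterozygotes, and received either saline or isoproterenol on 14 consecutive days. Isoproterenol, an agonist of beta-adrenergic receptors that loads the heart, was given under the skin at 60 mg/kg. Each of the 4 groups (WT saline, WT isoproterenol, Set7KO saline, Set7KO isoproterenol) held 2 libraries. The labels give the tissue as heart, with no strain, sex, age or part of the heart, and do not say that each library came from its own animal. The p-values therefore reflect how far the samples of a group lay apart, which may be partly technical.

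Totals ran from 27847069 to 51705705 counts per library. Setd7, the gene of the lysine methyltransferase Set7, stood at 43.7 and 43.0 CPM (counts scaled to a common library size) in WT saline. It stood at 58.1 and 72.6 CPM in WT isoproterenol, and between 3.79 and 5.70 CPM in the 4 Set7KO libraries. Summed levels of 10 cardiomyocyte markers lay between 100100 and 164900 CPM and were lowest in the 2 WT isoproterenol libraries. Atrial markers summed to 2625 CPM in WT saline replicate 1 and to between 206.1 and 805.7 CPM in the other 7. Nppa made up much of these sums. Of the other atrial markers, Myl7 stood at 445.3 CPM in WT saline replicate 1. It was at 97.1 CPM in WT isoproterenol replicate 2, 57.95 CPM in Set7KO saline replicate 1 and 0.39 to 5.30 CPM elsewhere. Myl4 and Sln were highest in the same libraries, so replicates of a group differed. Letters in the sample names also follow the groups in part, with D for both WT isoproterenol and A for both Set7KO isoproterenol libraries. The labels do not define those letters, so what they stand for and the groups cannot be told apart.

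Mitochondrial DNA is a small circle that is transcribed on both strands into long precursors. The tRNAs that lie between most of the other genes are cut out of these precursors, which frees the mRNAs and rRNAs, and most mRNAs then receive a tail of A residues. All 13 proteins are subunits of the respiratory chain or of ATP synthase, while the rRNAs and tRNAs serve the ribosomes of the organelle. The heart depends on this machinery for nearly all its ATP. The nuclear genome supplies the other subunits, the polymerase, and every factor that copies, processes and translates mitochondrial RNA.

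The genes have no introns and sit close together on chromosome M of GRCm38, so several share bases with a neighbour. The stretch common to mt-Atp8 and mt-Atp6 is shown because the values of these genes ran side by side in all libraries. It covers 43 bases at chrM:7927-7969 on the plus strand, with the start codon of mt-Atp6 in capitals.
mt-Atp8 and mt-Atp6: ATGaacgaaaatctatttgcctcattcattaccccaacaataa
Next come the last 25 bases of the 3 mRNA genes whose length leaves 1 base after the last whole codon. That base is in capitals; a tail of A residues completes the stop codon there, and library kits for mRNA select such tails. They lie at chrM:9366-9390, chrM:11520-11544 and chrM:15264-15288, all on the plus strand.
mt-Co3: gtctccatttattgatgaggatctT
mt-Nd4: aaactaattacaggcctgacaataT
mt-Cytb: gacaaaatactaaaattatatccaT
The tRNAs with the highest counts, mt-Ts1 (chrM:6870-6938, minus strand) and mt-Te (chrM:14071-14139, minus strand), and the one with the lowest, mt-Tf (chrM:1-68, plus strand), are shown whole with the anticodon in capitals. They carry serine, glutamate and phenylalanine.
mt-Ts1: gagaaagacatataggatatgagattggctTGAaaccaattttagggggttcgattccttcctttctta
mt-Te: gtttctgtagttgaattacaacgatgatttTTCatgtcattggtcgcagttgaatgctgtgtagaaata
mt-Tf: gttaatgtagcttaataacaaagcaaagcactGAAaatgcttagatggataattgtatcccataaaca

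The nuclear genome holds copies of mitochondrial sequence, and several are close enough that a read of 75 cycles cannot be assigned to one place. A stretch of 75 bases from the middle of mt-Co2 (chrM:7316-7390, plus strand) is the same, base for base, in the nuclear pseudogene Gm28661 (chr1:24615188-24615262, minus strand).
mt-Co2 and Gm28661: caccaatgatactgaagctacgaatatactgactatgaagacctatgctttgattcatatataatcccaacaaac
Over 483 aligned bases, mt-Co1 and the pseudogene Gm29216 differed by a single substitution, A1066T, with positions counted from the first base of mt-Co1. The first 31 aligned bases (chrM:6390-6420, plus strand, and chr1:24616158-24616188, minus strand) are given with that base in capitals.
mt-Co1: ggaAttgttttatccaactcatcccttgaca
Gm29216: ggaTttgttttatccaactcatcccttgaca

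Transcripts of the mitochondrial genome took 1.85% and 2.12% of all counts in the WT saline libraries. The share was 5.75% and 4.41% in WT isoproterenol, 3.02% and 3.81% in Set7KO saline, and 3.15% and 3.43% in Set7KO isoproterenol. The exact binomial 95% intervals, which cover counting error only, were narrow at this depth: 1.8494 to 1.8594% for the lowest library and 5.7456 to 5.7599% for the highest. The spread between the libraries of a group was far wider (pooled SD 0.567 percentage points, n = 2 per group). Both WT isoproterenol libraries lay above, and both WT saline libraries below, the 4 Set7KO libraries, and the Set7KO groups overlapped each other. The 13 mRNAs made up between 97.0% and 98.8% of these counts, the rRNAs between 0.557% and 2.48%, and the tRNAs between 0.321% and 0.644%.

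**Figure D1:**
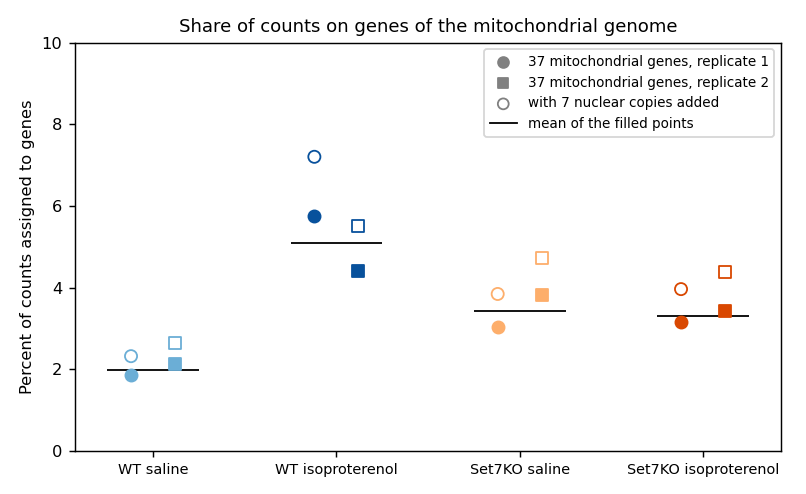
Percent of counts assigned to genes that fell on the 37 mitochondrial genes, by group, with filled points for the 2 libraries of each group (circle replicate 1, square replicate 2), black lines for their means, and open points with 7 nuclear copies added. WT saline is lowest (1.85% and 2.12%) and WT isoproterenol highest (5.75% and 4.41%).

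Base composition moved with the groups and has to be read beside every change below. The 13 mRNA genes held 31.9% (mt-Atp8) to 41.1% (mt-Nd4l) GC, the rRNA genes 35.4% and 35.8%, and the nuclear genes tested a median of 50.2%. All 13 mRNAs fell under 44.6% GC, the upper limit of the lowest of 5 equal GC classes of nuclear genes. As a measure of a GC trend, the median log2 deviation of nuclear genes in the highest GC class was taken minus that in the lowest, in each library. It was 0.55 and 0.87 in WT saline, -1.11 and -0.80 in WT isoproterenol, 0.36 and -0.93 in Set7KO saline, and 0.19 and 0.65 in Set7KO isoproterenol. Nuclear genes of low GC content were thus relatively high in both WT isoproterenol libraries and in Set7KO saline replicate 2. The same comparisons were fitted again with offsets per library for GC content and gene length, and the medians with them stand beside those of the members and of the nuclear lists in WT.

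Every member had a count in at least 1 library, and 33 passed the filter on low counts: all 13 mRNAs, both rRNAs and 18 tRNAs. The tRNAs that did not pass were mt-Tf, mt-Tv, mt-Td and mt-Tt, with at most 2, 6, 7 and 12 counts in a library. Per kilobase of gene, mt-Co1 (cytochrome c oxidase subunit 1) was the most abundant, at 8203 ± 3835 CPM per kilobase (SD over the 8 libraries). It was followed by mt-Cytb (cytochrome b of complex III) at 5753 ± 1542, mt-Nd6 (a complex I subunit) at 5030 ± 719.6 and mt-Co2 at 3812 ± 1469 CPM per kilobase. A middle tier held mt-Co3 (1934), mt-Nd1 (1845), mt-Nd4 (1478), mt-Atp6 (1344) and mt-Nd2 (1135), all in mean CPM per kilobase. Below them stood mt-Nd5 (687.7), mt-Atp8 (329.0), mt-Nd4l (254.8) and mt-Nd3 (174.2 CPM per kilobase).

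The range of each gene over the 8 libraries overlapped that of the next gene in this order. Within a library the order was firmer at some steps: mt-Co1 stood above mt-Cytb in 8 of 8 libraries and mt-Co2 above mt-Co3 in 8 of 8. It was not settled at others, with mt-Cytb above mt-Nd6 in 5, mt-Co3 above mt-Nd1 in 4 and mt-Nd4 above mt-Atp6 in 5 of 8. The gene for mt-Nd6 lies on the minus strand and the other 12 mRNA genes on the plus strand. The sources used here do not say whether the counting used strand, so reads of mt-Nd6 and reads of a plus-strand precursor across the same bases cannot be told apart.

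**Figure D2:**
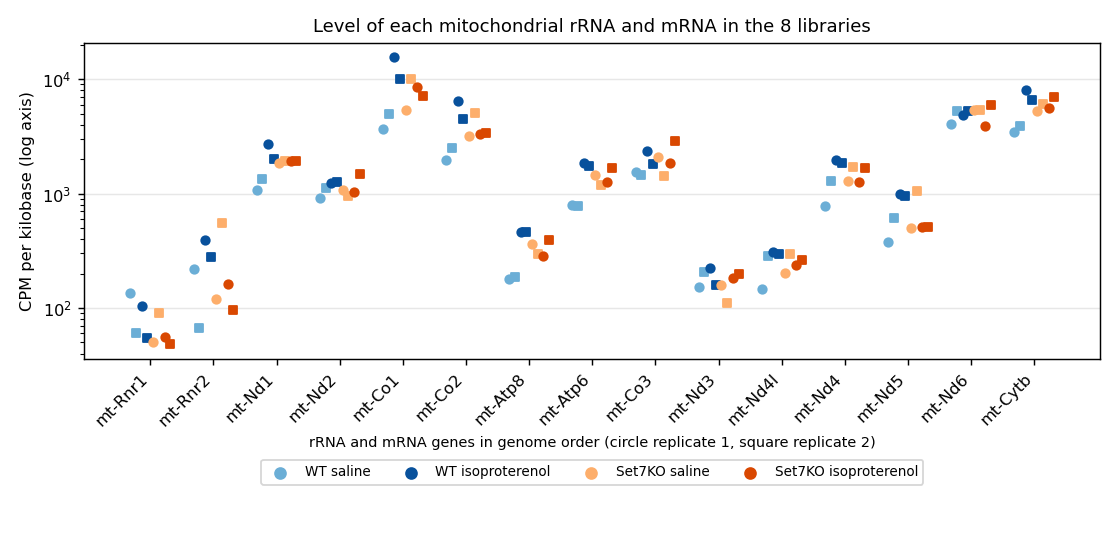
CPM per kilobase of gene (log axis) for the 2 rRNAs and 13 mRNAs in genome order, with a point for each of the 8 libraries (colour for group, circle replicate 1, square replicate 2). mt-Co1, mt-Cytb and mt-Nd6 are highest, mt-Nd6 varies least among the mRNAs and mt-Rnr2 most among the genes plotted.

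In WT hearts, levels of most mitochondrial mRNAs were higher after isoproterenol than after saline, and none passed the test. All 13 mRNAs had a positive log2 fold change, with a median of 0.97 against 0.06 over all genes tested and 1.13 over the nuclear genes of the lowest GC class. In edgeR's quasi-likelihood test, 0 of 33 members had an adjusted p under 0.05, and so did 0% of all 17636 genes tested; limma-voom also called 0 members and DESeq2 called 7 mRNAs higher (8.22% of all genes). At an unadjusted p under 0.05, 8 of 13 mRNAs and 4 of 18 tRNAs were higher, against 18.5% of all genes. The levels did not overlap and were higher in 11 of 13 mRNAs, against 39.3% of all genes tested. With GC and length offsets the median was -0.65, with 1 of 13 mRNAs higher and 12 lower, so the direction depends on whether these offsets are used. Among mRNAs, the unadjusted p in edgeR with offsets was under 0.05 for mt-Nd6 (0.00714), mt-Nd2 (0.00744) and mt-Nd3 (0.0241), each lower. The share of all genes at that p was not counted with offsets in any comparison. GC content and length entered together and were not fitted apart. Of the nuclear genes tested, 1260 lay at or under the highest GC content of the 13 mRNAs, 41.1% in mt-Nd4l. The median of the 13 was 37.1% and the lowest 31.9%, where the lowest nuclear gene had 31%. How many nuclear genes lay near these lower values was not counted, so the offsets there may rest on fewer genes.

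Of the subunits of cytochrome c oxidase (complex IV), mt-Co1 stood at 5643 and 7640 CPM in WT saline and at 24161 and 15559 CPM in WT isoproterenol. Its fitted log2 fold change was 1.58 ± 0.34 SE (2.99-fold; adjusted p = 0.0941 in edgeR), the highest among the 13, and with offsets it was 0.17 ± 0.35. Levels of mt-Co2 were 1354 and 1712 CPM with saline against 4448 and 3046 CPM with isoproterenol (log2 fold change 1.29 ± 0.28; -0.15 ± 0.32 with offsets). Both genes were higher in each isoproterenol library than in either saline library. For mt-Co3, the third subunit of the core, the levels were 1208 and 1150 CPM against 1858 and 1418 CPM, a smaller log2 fold change of 0.47 ± 0.28. With offsets it was -0.91 ± 0.41.

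The ATP synthase subunits had the smallest p-values of the 33 members, and their replicates lay close together. Levels of mt-Atp8 were 36.2 and 38.4 CPM in WT saline against 94.4 and 94.6 CPM in WT isoproterenol. Its log2 fold change was 1.34 ± 0.23 SE (2.53-fold; unadjusted p = 0.000365, adjusted p = 0.0941 in edgeR). Levels of mt-Atp6, which forms part of the proton channel, were 536.4 and 529.5 CPM against 1270 and 1198 CPM (log2 fold change 1.21 ± 0.22, adjusted p = 0.0941). With offsets, the log2 fold changes were -0.23 ± 0.49 for mt-Atp8 and -0.32 ± 0.35 for mt-Atp6. These genes share the 43 bases printed above, and the sources used here do not say to which gene reads in that stretch were given.

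For mt-Cytb, the only mitochondrial subunit of complex III, levels were 3984 and 4487 CPM with saline against 9251 and 7522 CPM with isoproterenol in WT. The log2 fold change was 0.99 ± 0.21 SE (adjusted p = 0.0941 in edgeR), and -0.43 ± 0.29 with offsets. The 7 complex I genes did not share 1 pattern. Levels of mt-Nd1 were 1019 and 1294 CPM against 2608 and 1910 CPM (log2 fold change 0.97 ± 0.22). Those of mt-Nd4 were 1068 and 1787 CPM against 2708 and 2547 CPM (0.88 ± 0.29), and those of mt-Nd5 689.1 and 1114 CPM against 1809 and 1728 CPM (0.97 ± 0.36). In these 3 genes both isoproterenol libraries stood above both saline libraries.

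The other 4 complex I genes differed less. Levels of mt-Nd4l were 43.4 and 85.0 CPM with saline against 92.6 and 87.8 CPM with isoproterenol, so the saline replicates lay further apart than the groups at their nearest (log2 fold change 0.49 ± 0.33). For mt-Nd2 the levels were 956.3 and 1161 CPM against 1284 and 1299 CPM (0.29 ± 0.23). The groups overlapped for mt-Nd3, at 53.1 and 72.3 CPM against 77.5 and 55.3 CPM (0.08 ± 0.28). They overlapped also for mt-Nd6, at 2101 and 2764 CPM against 2527 and 2746 CPM (0.12 ± 0.25). With offsets the log2 fold changes of these 4 genes ranged from -1.57 (mt-Nd3) to -0.73 (mt-Nd4l).

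**Figure D3:**
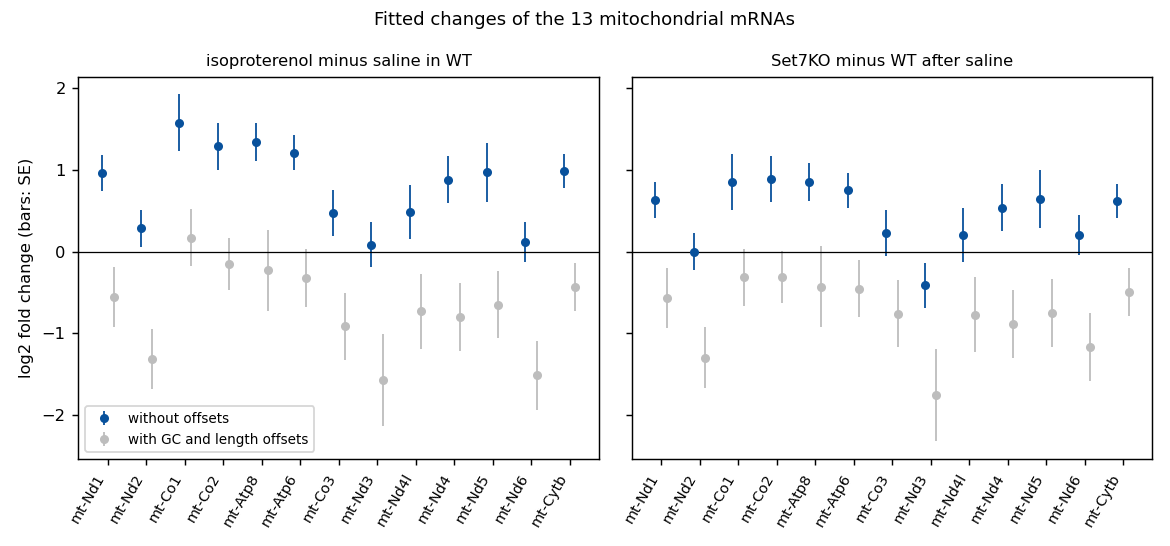
Fitted log2 fold changes of the 13 mRNAs, with bars for the SE, for isoproterenol minus saline in WT (left) and Set7KO minus WT after saline (right), without (blue) and with (grey) GC and length offsets. In WT all 13 points lie above 0 without offsets and all but mt-Co1 below 0 with them; after saline 12 lie above 0 without offsets and none with them.

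In Set7KO hearts, the levels after isoproterenol lay close to those after saline. The median log2 fold change of the 13 mRNAs was 0.03, against -0.04 over all genes tested, with 9 higher and 4 lower. Without offsets, no mRNA reached an unadjusted p under 0.05 in edgeR, against 3.65% of all genes higher and 6.01% lower, and the background of adjusted calls was 0%. For mt-Co1 the levels were 8312 and 15656 CPM with saline against 13296 and 11117 CPM with isoproterenol, so both isoproterenol values fell between the saline values. For mt-Atp8 they were 74.2 and 60.9 CPM against 57.8 and 80.5 CPM, again overlapping. The levels did not overlap for mt-Nd3 (55.5 and 38.9 CPM against 63.9 and 68.5 CPM) or mt-Nd1 (1758 and 1838 CPM against 1857 and 1844 CPM), 2 of 13 mRNAs against 16% of all genes. With GC and length offsets all 13 mRNAs were higher after isoproterenol (median 0.83). The unadjusted p in edgeR was then under 0.05 for mt-Nd2 (0.0182), mt-Cytb, mt-Atp6, mt-Co3, mt-Nd3 and mt-Co1, and 0 members passed. The share of all genes at that p was not counted with offsets. DESeq2 called 0 members (0.573% of all genes), and limma-voom called 0 members and 0 genes. In the lowest GC class the nuclear genes had a median of -0.55.

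After saline, Set7KO hearts had higher fitted levels than WT hearts for 12 of 13 mRNAs, with a median log2 fold change of 0.62 against 0.02 over all genes tested and 0.73 over the nuclear genes of the lowest GC class. None of the 33 members passed in edgeR or limma-voom, where 0.00567% of all genes did, nor in DESeq2 (0.119%). At an unadjusted p under 0.05, 6 of 13 mRNAs were higher and 0 lower, against 7.83% and 2.46% of all genes, and 7 of 13 were higher without overlap, against 19.6%. With GC and length offsets all 13 were lower (median -0.75), and the Set7KO saline libraries themselves had GC trends of opposite sign. Among mRNAs, the unadjusted p in edgeR with offsets was under 0.05 for mt-Nd2 (0.00807), mt-Nd3 (0.0151) and mt-Nd6 (0.0234). Without offsets the values were as follows. Levels of mt-Atp8 had a log2 fold change of 0.86 ± 0.23 SE, of mt-Atp6 0.75 ± 0.21, of mt-Co2 0.89 ± 0.28 and of mt-Co1 0.85 ± 0.34, each at an adjusted p of 0.483. For mt-Co2 the levels were 1354 and 1712 CPM in WT and 2204 and 3487 CPM in Set7KO. Of the 13, only mt-Nd3 had a lower fitted level (log2 fold change -0.41 ± 0.28), at 53.1 and 72.3 CPM in WT and 55.5 and 38.9 CPM in Set7KO.

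After isoproterenol, 11 of 13 mRNAs had a lower fitted level in Set7KO than in WT, with a median log2 fold change of -0.29 against -0.05 over all genes tested and -0.94 over the nuclear genes of the lowest GC class. Without Set7KO isoproterenol replicate 1 the median was -0.16, with 4 of 13 higher. No member passed in edgeR or limma-voom (0.00567% of all genes did), or in DESeq2 (1.68%). At an unadjusted p under 0.05, 2 mRNAs were lower and 0 higher, against 12.7% and 7.22% of all genes, and 8 of 13 were lower without overlap, against 36.3%. For mt-Nd5 the levels were 1809 and 1728 CPM in WT and 938.1 and 931.5 CPM in Set7KO (log2 fold change -0.92 ± 0.36 SE, adjusted p = 0.237). For mt-Co2 they were 4448 and 3046 CPM against 2274 and 2336 CPM (-0.70 ± 0.28, adjusted p = 0.24). With GC and length offsets all 13 were higher in Set7KO (median 0.77). Among mRNAs, the unadjusted p in edgeR was then under 0.05 for mt-Nd2 (0.0167), mt-Co3 (0.0222), mt-Cytb (0.0279) and mt-Nd6 (0.0384).

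The interaction asks whether the isoproterenol difference in Set7KO departs from that in WT, and was taken as the Set7KO difference minus the WT difference. It was negative for 11 of 13 mRNAs, with a median of -0.92 against -0.05 over all genes and -1.68 over the nuclear genes of the lowest GC class. No member passed in edgeR, nor did any other gene (0%), and the lowest adjusted p among the members was 0.0887. DESeq2 called 5 members lower (8.5% of all genes) and limma-voom 0. At an unadjusted p under 0.05, 7 of 13 mRNAs were lower, against 18.6% of all genes. The values were -1.59 ± 0.40 SE for mt-Co2, -1.31 ± 0.33 for mt-Atp8, -1.57 ± 0.51 for mt-Nd5 and -1.55 ± 0.48 for mt-Co1. For mt-Nd2, mt-Nd3 and mt-Co3 they were 0.01 ± 0.32, 0.40 ± 0.39 and -0.04 ± 0.40. With GC and length offsets all 13 were positive (median 1.31). Among mRNAs, the unadjusted p in edgeR was then under 0.05 for mt-Nd2 (0.00176), mt-Nd6, mt-Nd3, mt-Co3, mt-Cytb, mt-Nd4, mt-Nd1 and mt-Atp6 (0.041). No member passed with offsets, and the share of all genes at that p was not counted. The comparisons within WT, within saline and of the interaction share the WT saline libraries.

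Averaged over both genotypes, 12 of 13 mRNAs were higher after isoproterenol (median log2 fold change 0.46; 0.05 with offsets, 8 of 13 higher). At an unadjusted p under 0.05, 6 were higher and 0 lower in edgeR, against 4.5% and 4.9% of all genes. Among mRNAs, only mt-Nd1 was higher in all 4 isoproterenol (1844 to 2608 CPM) than in all 4 saline libraries (1019 to 1838 CPM). That made 1 of 13 mRNAs higher without overlap and 0 lower, against 2.11% and 2.01% of all genes. Of the 18 tRNAs tested, 1, mt-Tm, was also higher without overlap (2.168 to 2.744 CPM against 1.53 to 1.885 CPM). The smallest p was that of mt-Atp6, at 0.68 ± 0.15 SE (adjusted p = 0.196 in edgeR, where 0.051% of all genes passed); DESeq2 called mt-Atp6 and mt-Atp8 (0.493% of all genes) and limma-voom 0 members (0.0794%). Its levels were between 529.5 and 981.4 CPM in the 4 saline libraries and between 853.4 and 1270 CPM in the 4 isoproterenol libraries, so the groups overlapped. Averaged over both treatments, the genotype difference had a median of 0.08 over the 13 mRNAs. It was -0.01 over all genes tested and -0.09 over the nuclear genes of the lowest GC class. Of the 13 mRNAs, 0 had an unadjusted p under 0.05 in edgeR, against 0.987% of all genes higher and 0.578% lower. In that test 0 members passed (0.00567% of all genes).

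A few libraries set part of these values. Of the 13 mRNAs, 9 were lowest in WT saline replicate 1, the library with the highest atrial markers, and 8 were highest in WT isoproterenol replicate 1. Without WT saline replicate 1, the median in WT was 0.66 (11 of 13 higher) and that of Set7KO against WT after saline 0.34 (10 of 13 higher). Without WT isoproterenol replicate 1, the interaction median was -0.68. The number of calls changed when either Set7KO saline library was left out. Without replicate 1 of that group, edgeR called 7 mRNAs higher in WT (12.2% of all genes), 1, mt-Co2, higher in Set7KO after saline (3.9%) and 5 members lower in the interaction (18.0%). Without replicate 2 it called 8 mRNAs higher in WT (11.6%) but 0 members in Set7KO after saline (0.011%) and 0 in the interaction (0.0055%), and the median after saline was 0.35. Scaling to library totals without TMM gave 7 calls in WT (6.44% of all genes) and 7 in the interaction (8.32%), and fitting without the filter on low counts gave 7 (3.99%) and 5 (5.39%).

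The rRNAs, mt-Rnr1 of the small and mt-Rnr2 of the large ribosomal subunit, had few counts for genes so abundant in the cell, in libraries made with a kit for mRNA. Levels of mt-Rnr1 were 128.9 and 57.2 CPM in WT saline and 99.0 and 52.7 CPM in WT isoproterenol. In Set7KO they were 48.0 and 86.9 CPM without isoproterenol, against 53.1 and 46.0 CPM with it. Compared within a genotype or within a treatment, the groups of mt-Rnr1 overlapped. Levels of mt-Rnr2 were 348.4 and 106.2 CPM in WT saline, 620.7 and 440.8 CPM in WT isoproterenol, 189.6 and 871.8 CPM in Set7KO saline, and 256.9 and 150.6 CPM in Set7KO isoproterenol. Its highest level was 8.21 times its lowest, and both extremes were saline libraries. The ratio of mt-Rnr2 to mt-Rnr1 counts ran from 1.85 (WT saline replicate 2) to 10.0 (Set7KO saline replicate 2). In edgeR the interaction of mt-Rnr2 was -2.60 ± 1.03 SE (unadjusted p = 0.0341, adjusted p = 0.141), and -0.06 ± 0.86 with offsets. For mt-Rnr1 the log2 fold change in WT was -0.30 ± 0.46 without offsets and -1.73 ± 0.35 with them (unadjusted p = 0.00119, adjusted p = 0.141). With offsets mt-Rnr1 was also lower in Set7KO after saline (-1.68 ± 0.35) and had an interaction of 2.25 ± 0.49, neither past the threshold in edgeR.

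The tRNA genes are 59 to 75 bases long, so a read of 75 cycles fits whole within the longest of them only, and their levels cannot be set against those of longer genes. Counts were concentrated in a few. Levels of mt-Ts1 were 42.2 and 52.2 CPM in WT saline, 93.5 and 70.0 CPM in WT isoproterenol, 83.2 and 51.2 CPM in Set7KO saline, and 87.4 and 140.0 CPM in Set7KO isoproterenol. Levels of mt-Te ranged from 31.8 to 56.4 CPM over the 8 libraries. Every other tRNA stayed at or under 10.96 CPM, the highest level of mt-Tl2. Both mt-Ts1 and mt-Te lie on the minus strand beside an abundant mRNA gene: mt-Ts1 overlaps the last 3 bases of mt-Co1, and mt-Te ends where mt-Nd6 begins in the annotation. Reads of a tRNA and of a precursor or of the opposite strand there cannot be told apart.

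In WT, 14 of the 18 tRNAs tested had a higher fitted level after isoproterenol (median log2 fold change 0.47; -0.84 with offsets, 2 of 18 higher), and 0 passed. The offsets for tRNAs rest on few genes of their size, since 13 nuclear genes tested were as short. The smallest p was that of mt-Tl1, a leucine tRNA whose gene follows mt-Rnr2, at 0.90 ± 0.30 SE (adjusted p = 0.107 in edgeR). Its levels were 1.83 and 1.43 CPM with saline against 3.27 and 2.80 CPM with isoproterenol. The adjacent genes mt-Th, mt-Ts2 and mt-Tl2, between mt-Nd4 and mt-Nd5, showed the same order of libraries at the extremes. For mt-Tl2 the levels were 1.87 and 6.23 CPM in WT saline and 10.96 and 9.35 CPM in WT isoproterenol. In Set7KO they were 5.46 and 4.41 CPM without isoproterenol, against 8.07 and 3.84 CPM with it. All 3 genes were lowest in WT saline replicate 1 and highest in WT isoproterenol replicate 1, and their log2 fold changes in WT were 1.17, 1.32 and 1.32. The 4 lowest tRNAs, which were not tested, stood at 0.27 CPM or less, where 3 counts are worth 0.0598 to 0.112 CPM.

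The mRNAs did not keep fixed proportions to one another, a measure that does not depend on how libraries are scaled. As a share of the counts on the 13 mRNAs, mt-Co1 took 30.2% and 32.1% in WT saline and 46.3% and 39.7% in WT isoproterenol. In Set7KO it took 30.0% and 41.0% after saline and 41.5% and 31.9% after isoproterenol. The share of mt-Nd6 went the other way in WT, at 11.2% and 11.6% after saline and 4.84% and 7.00% after isoproterenol. In Set7KO it was 10.2% and 7.33% after saline and 6.31% and 8.91% after isoproterenol. Neither share overlapped between the WT groups, and both overlapped between the Set7KO groups. They were not alone in this: the WT groups did not overlap either for mt-Nd1, mt-Nd2, mt-Co2, mt-Co3, mt-Nd3 and mt-Nd4l. The WT groups overlapped for mt-Atp8, mt-Atp6, mt-Nd4, mt-Nd5 and mt-Cytb. Shares of a fixed sum also depend on each other. The share of mt-Cytb stayed between 17.7% and 23.1%, and that of mt-Nd3 varied the most, by 2.97 times. Expressed as the log2 ratio of mt-Nd6, the only mRNA of its strand, to the other 12, the values were -2.98 and -2.93 in WT saline and -4.30 and -3.73 in WT isoproterenol. They were -3.15 and -3.66 in Set7KO saline and -3.89 and -3.35 in Set7KO isoproterenol. Over both genotypes the 4 isoproterenol libraries had a mean of -3.82 and the 4 saline libraries of -3.18, a difference of -0.64. An exact two-sided permutation test gave p = 0.0571, where the smallest p it allows is 0.0286. That test exchanged labels without regard to genotype and was chosen after the values were seen, so the p is a description only. Within WT the difference was -1.06, where 2 against 2 libraries cannot go below an exact p of 0.333. The genes also differ in GC content (39.9% for mt-Co1, 34.1% for mt-Nd6), and its part in these shares was not tested.

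**Figure D4:**
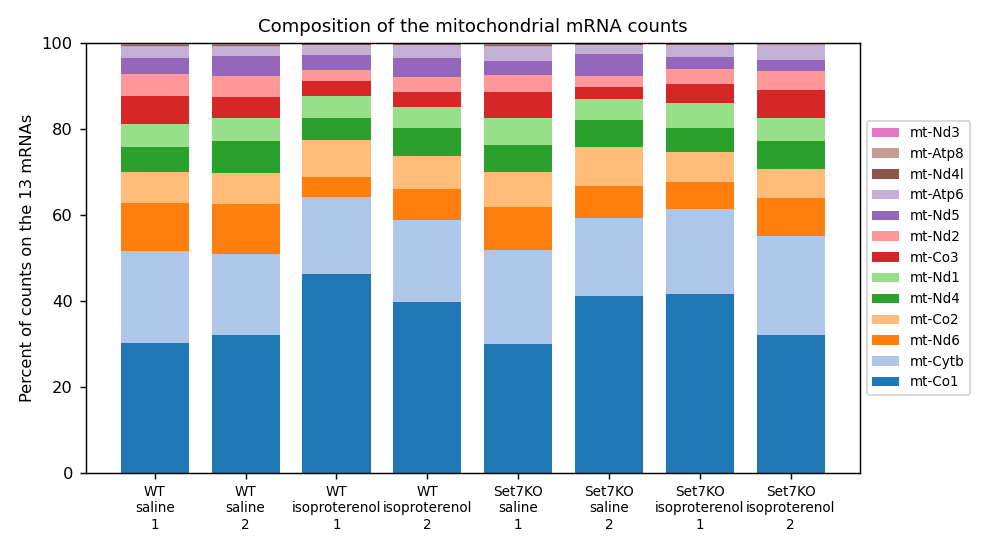
Percent of the counts on the 13 mitochondrial mRNAs taken by each gene, as stacked bars for the 8 libraries. The bottom segment, mt-Co1, is widest in WT isoproterenol replicate 1 (46.3%), where mt-Nd6 is narrowest (4.84%).

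Nuclear copies of mitochondrial sequence also held counts. Aligned to the mitochondrial transcripts, 11 nuclear pseudogenes matched over at least 75 bases at 95% identity or more, and together they held between 0.614% (WT saline replicate 1) and 2.16% (WT isoproterenol replicate 1) of all counts. Of these, 7 lie in a row on chromosome 1, between 24611535 and 24616197 on the minus strand. Of these 7, the 5 that repeat a gene nearly whole had nearly the same count as the gene itself. The count of Gm28661 was 97.4% to 97.7% of that of mt-Co2 over the 8 libraries, that of Gm28437 99.4% to 99.8% of mt-Co3, and that of Gm10925 101.3% to 101.7% of mt-Atp6. Gm10222 stood at 99.8% to 100.2% of mt-Nd4l and Gm28438 at 102.3% to 106.1% of mt-Nd3. All 5 matched the gene without a mismatch over the stretch of the local alignment. Whole copies on chromosome 2 were less alike and had smaller counts: Gm13340, at 97.6% identity, had 19.6% to 22.5% of the count of mt-Co1, and Gm13341, at 95.9%, had 22.4% to 23.7% of that of mt-Co2.

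Shorter copies had smaller shares. Gm28439 covers 876 of the 1378 bases of mt-Nd4 and had 28.2% to 48.0% of its count, while Gm29216 covers 483 of the 1545 bases of mt-Co1 and had 20.5% to 27.0%. The submitters' sources used here do not say how reads with several places were counted. The levels of mt-Co1, mt-Co2, mt-Co3, mt-Atp6, mt-Nd3 and mt-Nd4l, and part of mt-Nd4, are therefore uncertain against genes without a copy. Parts of mt-Nd2 and mt-Nd5 also have copies with smaller counts. Gm13339 had 2.86% to 4.29% of the count of mt-Nd2, and Gm4076 1.4% to 3.06% of that of mt-Nd5. With the 7 copies on chromosome 1 added, the mitochondrial share had a mean of 2.48% in WT saline, 6.36% in WT isoproterenol, 4.28% in Set7KO saline and 4.17% in Set7KO isoproterenol. With all 11 added, the means were 2.65%, 6.94%, 4.61% and 4.47% in the same order.

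**Figure D5:**
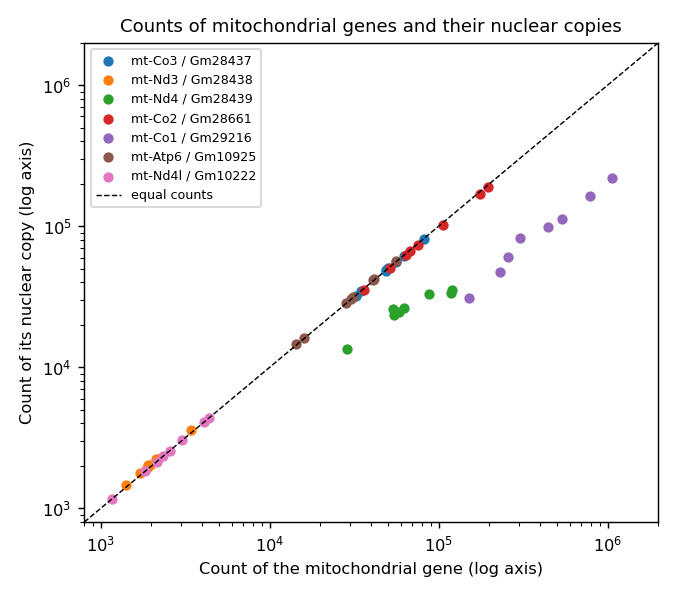
Count of each mitochondrial gene (x, log axis) against the count of its nuclear copy on chromosome 1 (y, log axis), with a point for each of the 8 libraries and a dashed line for equal counts. Genes copied nearly whole lie on the line (mt-Co2 at 97.4% to 97.7%), and mt-Co1 and mt-Nd4, copied in part, lie below it.

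Nuclear genes that serve the mitochondrial genome were counted from lists, each read beside the mitochondrial mRNAs in WT. Among 33 nuclear genes of the respiratory chain and ATP synthase (32 symbols, since Atp5o names 2 entries), 24 had a lower fitted level after isoproterenol, 16 of them at an unadjusted p under 0.05 (13.3% of all genes), with 2 higher at that p (18.5%). The median log2 fold change was -0.36 with and without offsets. None passed in edgeR. Levels of Cox6a2, a heart and muscle subunit of cytochrome c oxidase, were 2321 and 2886 CPM with saline against 1055 and 1207 CPM with isoproterenol (-1.20 ± 0.24 SE, adjusted p = 0.0941). Those of Uqcrc1, a core subunit of complex III, were 2568 and 3585 CPM against 1419 and 1604 CPM (-1.03 ± 0.24), and those of Cyc1, cytochrome c1, 1576 and 1975 CPM against 952.2 and 958.0 CPM (-0.89 ± 0.22). Without offsets all 13 mitochondrial mRNAs had a higher fitted level. With offsets 27 of the 33 nuclear genes and 12 of the 13 mRNAs had a lower one. Proteins of the mitochondrial ribosome had a median of -0.21, with 57 of 78 lower (-0.38 and 70 of 78 with offsets).

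For mitochondrial transcription the median was 0.92 (-0.03 with offsets), and 9 of the 10 genes had a higher fitted level. At an unadjusted p under 0.05, 6 were higher and 1 lower, against 18.5% and 13.3% of all genes. Levels of Tfam, which packages mitochondrial DNA and starts its transcription, were 14.3 and 9.58 CPM with saline against 28.05 and 20.2 CPM with isoproterenol (1.01 ± 0.30 SE, adjusted p = 0.0967 in edgeR). Levels of Mterf2, of the family of mitochondrial termination factors, were 1.90 and 1.46 CPM against 8.96 and 6.58 CPM (2.21 ± 0.59), and those of Mterf3, of the same family, had a log2 fold change of 1.21 ± 0.37. Polrmt, the mitochondrial RNA polymerase, was the member with a lower fitted level (-0.64 ± 0.23). The 13 genes of mitochondrial DNA replication had a median of 0.26 (-0.04 with offsets), with 9 higher, among them Rrm2b, a ribonucleotide reductase subunit (1.54 ± 0.54), and Ssbp1, the single-strand binding protein (0.97 ± 0.38).

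The 35 genes of mitochondrial RNA processing had a median of 0.12 (0.01 with offsets), with 19 higher and 16 lower. Trnt1, which adds the CCA end to tRNAs, had a log2 fold change of 2.03 ± 0.48, Angel2 of 1.27 ± 0.32 and Fastk of -0.81 ± 0.21. Translation factors (15 genes) had a median of 0.21 (0.08 with offsets), with Tufm, the elongation factor, at -0.98 ± 0.23, Guf1 at 1.59 ± 0.43 and the release factor Mtrf1 at 1.17 ± 0.33. Regulators of mitochondrial gene programmes (12 genes) had a median of 0.08 (-0.04 with offsets), with Gabpa at 1.25 ± 0.37, Esrra, a nuclear receptor, at -0.65 ± 0.19 and Pprc1 at -0.50 ± 0.25. No member of the 7 nuclear lists passed in edgeR or limma-voom in any comparison. Of their 196 genes, DESeq2 called 16 higher and 43 lower in WT, against 8.22% and 7.2% of all genes. In the interaction it called 27 higher and 20 lower, against 4.66% and 8.5% of all genes. It called 3 higher and 3 lower in Set7KO against WT after isoproterenol (0.42% and 1.26% of all genes). Averaged over genotypes, it called 1 lower after isoproterenol (0.93%). In the interaction, the transcription list had a median of -1.31 (0.12 with offsets), the nuclear respiratory chain list of 0.46 (0.42) and the mitochondrial mRNAs of -0.92 (1.31).

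Among 8120 nuclear genes with a mean of at least 10 CPM, the 5 most like the mean log2 level of the 13 mRNAs over the 8 libraries were Gm29216 (Pearson's r 0.954), Gm28661 (0.923), Gm13341 (0.923), Gm10925 (0.904) and C1s1 (0.898). The first 4 are nuclear copies of mt-Co1, mt-Co2 and mt-Atp6, with which they share sequence. C1s1, a protease of the complement system, stood at 20.8 and 25.2 CPM in WT saline and at 37.6 and 32.8 CPM in WT isoproterenol. The 8 points share libraries, normalization and the GC trend, and the values are a description.

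Markers of other cells were set beside the mitochondrial levels, since in whole tissue fewer cells of a type and less RNA per cell cannot be told apart. The cardiomyocyte markers had a median log2 fold change of -0.42 in WT after isoproterenol, with 8 of 10 lower, and their sum was lowest in the libraries with the highest mitochondrial share. The 4 lymphocyte markers summed to 5.90 and 6.50 CPM in WT saline and 1.23 and 0.837 CPM in WT isoproterenol, and the 4 erythroid markers to 3033 and 3385 CPM against 1205 and 1000 CPM. In Set7KO the erythroid markers summed to 3378 and 8197 CPM after saline and to 3464 and 2134 CPM after isoproterenol. Their highest sum lay in Set7KO saline replicate 2, whose GC trend was opposite in sign to that of replicate 1. The lymphocyte sums in Set7KO were 6.76 and 3.77 CPM against 4.76 and 3.37 CPM. The 5 fibroblast markers summed to 285.0 and 414.4 CPM against 604.3 and 503.0 CPM, with log2 fold changes of both signs among them. Dcn stood at 86.2 and 121.5 CPM against 376.8 and 276.3 CPM and Lum had a higher fitted level (log2 fold change 2.62 ± 0.47 SE), while Col1a1 (-0.39 ± 0.53) and Tcf21 (-0.62 ± 0.38) had lower fitted levels. Of the brown fat markers, Ucp1 was at 0 in all 8 libraries, Adipoq at 0.866 CPM or less and Plin1 at 0.845 CPM or less. Cidea stood between 29.3 and 71.7 CPM in 6 libraries and at 131.8 and 118.8 CPM in Set7KO isoproterenol (log2 fold change in Set7KO 1.72 ± 0.29 SE, unadjusted p = 0.00031, adjusted p = 0.369 in edgeR). The part of cell composition in the mitochondrial levels was not tested.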

How the data were processed

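RNA from 8 mouse heart samples was sequenced. Per the labels' protocols, RNA was isolated with TRIzol, libraries came from a TruSeq Stranded mRNA kit, and a NextSeq 500 read 75 cycles from 1 end. The deposited values are raw counts per gene; HISAT2, HISAT, StringTie, edgeR and GRCm38 are named in the submitters' processing notes, with versions, roles, strand setting and the handling of reads with several places not given in the sources used here. Symbols, coordinates and transcript sequences came from GENCODE M21 (GRCm38), which named 55227 of 55487 identifiers.

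The labels gave the groups. The 4 group means were fitted together with edgeR 4.0.16 in R 4.3.3 (TMM, filterByExpr, 17636 genes, quasi-likelihood F-test, two-sided, Benjamini-Hochberg over all genes in each of 7 contrasts, threshold 0.05), with 4 residual degrees of freedom. The procedure was also run on simulated counts. Those had the same dispersion for all genes and no GC trend between libraries, so behaviour under such a trend was not tested. The SE came from the F statistic. CPM use TMM library sizes. Nuclear copies were found with blastn 2.17.0 and aligned with Biopython 1.88. Alternatives were other scalings and filters, limma-voom (limma 3.58.1), DESeq2 1.42.0, GC and length offsets (natural splines, 5 degrees of freedom each), leaving out each library and, added after seeing the data, summing 7 nuclear copies with their genes and adding all 11 to the share. The exact permutation test of the mt-Nd6 ratio was also chosen after its values were seen. The members, lists and tests were chosen with earlier results of these data known. The rule for names took all 37 members, Setd7, up to 3 genes of each nuclear list with the smallest p in WT at a mean of at least 1 CPM (up to 4 where any passed), the nuclear copies, and the 5 most alike genes; Polrmt was named after its value was seen.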

Additional observations from a re-analysis of the deposited data

How the results depend on the processing

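No paired analysis was possible because the labels give no replicate numbers shared between groups; libraries were numbered in accession order. Over 18 alternatives the median log2 fold change of the 13 mRNAs kept its sign in 17 for isoproterenol in WT, for Set7KO against WT after saline, for Set7KO against WT after isoproterenol and for the interaction; the exception in each was the GC and length offsets. With them the medians were -0.6468 in WT, 0.8336 in Set7KO, -0.7496 and 0.7665 for Set7KO against WT after saline and after isoproterenol, 1.3119 for the interaction and 0.051 averaged over genotypes, with 0 members called in any. Of the 33 members tested, the offsets reversed the sign of 25 in WT, 24 for Set7KO against WT after saline, 25 after isoproterenol and 23 for the interaction (12, 12, 11 and 11 of the 13 mRNAs). Those among them with an unadjusted p under 0.05 without offsets were, in WT, mt-Ts2 (-0.5101), mt-Nd5 (-0.6468), mt-Tl2 (-0.549), mt-Nd4 (-0.8013), mt-Ts1 (-0.5935), mt-Nd1 (-0.5577), mt-Cytb (-0.4335), mt-Co2 (-0.1536), mt-Atp8 (-0.226) and mt-Atp6 (-0.3182). For Set7KO against WT after saline they were mt-Nd1 (-0.5691), mt-Cytb (-0.4933), mt-Co1 (-0.3143), mt-Co2 (-0.3064), mt-Atp8 (-0.4289) and mt-Atp6 (-0.4522), and after isoproterenol mt-Nd5 (0.2229) and mt-Co2 (0.3243). For the interaction they were mt-Nd5 (0.9725), mt-Nd1 (1.3692), mt-Cytb (1.2838), mt-Co1 (0.6376), mt-Co2 (0.6307), mt-Atp8 (1.061) and mt-Atp6 (1.2187). The cause was not tested.

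Members called in WT numbered 0 in edgeR as reported. They numbered 7 with library totals without TMM (6.44% of all genes higher), 7 without a filter (3.99%) and 7 in DESeq2 (8.22%). For the interaction the counts were 7 (8.32% of all genes lower), 5 (5.39%) and 5 (8.5%). Averaged over genotypes, DESeq2 called 2 higher (0.493%). The members called in WT in these settings were mt-Atp6, mt-Atp8, mt-Co1, mt-Co2, mt-Cytb, mt-Nd1 and mt-Nd4. All other alternatives that kept every library called 0 members in WT, among them limma-voom and the GC and length offsets. Library totals without TMM gave medians of 1.221 in WT, where the median of all genes was 0.3034, and -1.2498 for the interaction. Leaving out each library gave 0 to 8 calls and medians of 0.6613 to 1.115 in WT, 0 to 1 and 0.3377 to 0.7778 for Set7KO against WT after saline, 0 and -0.3951 to -0.1596 after isoproterenol, and 0 to 5 and -1.0211 to -0.6827 for the interaction; the lone library of a group was then assumed to vary like the others. With 7 nuclear copies added, the mean share was 6.357% in WT isoproterenol, 4.281% in Set7KO saline and 4.175% in Set7KO isoproterenol; with all 11, which was chosen after seeing the data, it was 2.65% in WT saline and 6.936%, 4.613% and 4.475% in those groups. Depth limits mainly the tRNAs; with 2 libraries a group, the spread between libraries limits the rest.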
